A study of Mus musculus with 6 samples.

Results

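The genes described here are 9 markers of the fetal-like, regenerative state of the intestinal epithelium: Ly6a, Anxa1, Anxa10, Clu, Spp1, Gja1, Msln, Il1rn and Il33. They were chosen by symbol and make up 9 of the 24956 rows of an RNA-seq table of mouse intestinal organoids, cultures of epithelium grown from primary tissue. All 6 libraries came from organoids of the Apc Min genotype, in which a truncating allele of Apc, a brake on Wnt signalling, predisposes mice to intestinal adenomas, so the controls carry it too. Of these, 3 libraries came from organoids in control medium and 3 from organoids in low glutamine medium. The series title sets the comparison within work on α-ketoglutarate, a metabolite made from glutamine, and on Wnt signalling and differentiation in colorectal cancer. The glutamine concentrations, the time in the medium, the region of the intestine, the sex of the animals and whether the second Apc allele was still present are not stated in the labels. The design text calls the libraries of a group biological replicates. Nothing says that those within a group came from separate animals or cultures. Each p-value therefore measures the spread between these libraries, which may be technical.

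After injury, the adult intestinal epithelium can lose its usual stem cell programme for a time and switch on genes of the fetal gut. Ly6a (Sca-1) marks the repairing epithelium, and Clu marks rare cells that restore the crypt after damage. The transcriptional co-activators YAP and TAZ, which act through TEAD DNA-binding factors, and AP-1 are known to take part in this switch.

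RefSeq start sites (GRCm38.p6, the mm10 build) were found for 6 of the 9 genes, with 10 start sites in all. Ly6a, Clu and Msln were not among them. The 250 bases before the start are shown for 4 genes with a match to the TEAD motif or the AP-1 motif of the pathways named above. The windows of Il33 and of the third Il1rn start also hold a TEAD match and are not shown. Capitals mark GGAATG (TEAD) or TGANTCA (AP-1) on either strand, and each sequence is read 5′ to 3′ along the gene.
Anxa1 (chr19:20390672-20390921, minus strand): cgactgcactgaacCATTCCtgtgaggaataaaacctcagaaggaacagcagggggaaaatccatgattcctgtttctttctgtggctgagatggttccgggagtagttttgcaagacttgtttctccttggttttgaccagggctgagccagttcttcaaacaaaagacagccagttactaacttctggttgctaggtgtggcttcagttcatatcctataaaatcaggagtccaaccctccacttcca
Anxa10 (chr8:62123194-62123443, minus strand): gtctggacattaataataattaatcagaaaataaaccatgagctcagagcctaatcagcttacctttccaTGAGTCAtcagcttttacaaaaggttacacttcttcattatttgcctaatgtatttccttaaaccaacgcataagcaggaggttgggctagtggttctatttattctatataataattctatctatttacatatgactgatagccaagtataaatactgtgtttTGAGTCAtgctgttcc
Il1rn, first start (chr2:24336610-24336859, plus strand): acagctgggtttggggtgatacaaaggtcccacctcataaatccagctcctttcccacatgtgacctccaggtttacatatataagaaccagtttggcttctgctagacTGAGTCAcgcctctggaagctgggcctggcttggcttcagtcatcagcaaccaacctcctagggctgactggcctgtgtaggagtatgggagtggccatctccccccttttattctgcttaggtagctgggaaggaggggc
Gja1 (chr10:56377050-56377299, plus strand): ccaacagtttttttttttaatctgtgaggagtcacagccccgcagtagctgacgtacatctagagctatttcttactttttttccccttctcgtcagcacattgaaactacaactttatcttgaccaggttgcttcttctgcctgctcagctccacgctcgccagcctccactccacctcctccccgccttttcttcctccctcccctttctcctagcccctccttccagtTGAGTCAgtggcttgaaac
In Anxa1 the TEAD match, which lies on the opposite strand, began at base -236 from the start. In Anxa10 the AP-1 matches began at -180 and -16, in Il1rn at -141 and in Gja1 at -19. The AP-1 letters were in 3 of the 10 windows of these genes and in 6.75% of all 32851 windows of the RefSeq table. The TEAD letters were in 4 of the 10 windows and in 12.6% of all windows. The 3 further TEAD windows belonged to Il33, with 2 of them, and to the third Il1rn start, which overlaps the second. The TCF/LEF letters ATCAAAG were in 0 of the 10 windows and 3.21% of all. The STAT letters TTCNNNGAA were in 0 and 7.02%. The TATA box letters TATAAA were in 5 of the 10 windows and in 12.4% of all. These are matches of letters, and binding was not measured.

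In low glutamine medium Clu, Anxa1 and Ly6a went from under 1.5 RPKM to between 28.1 and 42.9 RPKM (reads scaled to transcript length and library depth). Msln, Il1rn and Anxa10 were higher at lower levels. Gja1 was higher in every low glutamine library at a level near detection, Il33 overlapped between the groups, and Spp1 was listed at 0 in all 6 libraries. Summed over the 9 genes, the level was 3.42 to 4.54 RPKM in control libraries and 112 to 124 RPKM in low glutamine libraries. In bulk RNA, a larger share of cells that express a gene and more of its RNA per cell cannot be told apart.

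The group test was run on 11082 genes, those averaging 1 RPKM or more across all libraries, with a threshold of 0.05 on the adjusted p. Fold changes from it are on the log2(RPKM + 1) scale and understate the change of low genes. Of all tested genes, 36.1% were higher in low glutamine and 30.3% were lower. Every count of list genes called below is to be read beside these shares. All 9 genes had a control mean under 1 RPKM, and 6 reached the limit only through their low glutamine values, so these 6 had to differ and their count is no evidence about the set. The same holds for genes of the lists below whose control mean was under 1 RPKM. Without the limit, 7 of the 8 genes above 0 passed as higher, against 30.5% of all rows above 0. Every low glutamine library lay above every control library for 7 of the 9, against 36.1% of all rows above 0.

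**Figure D1:**
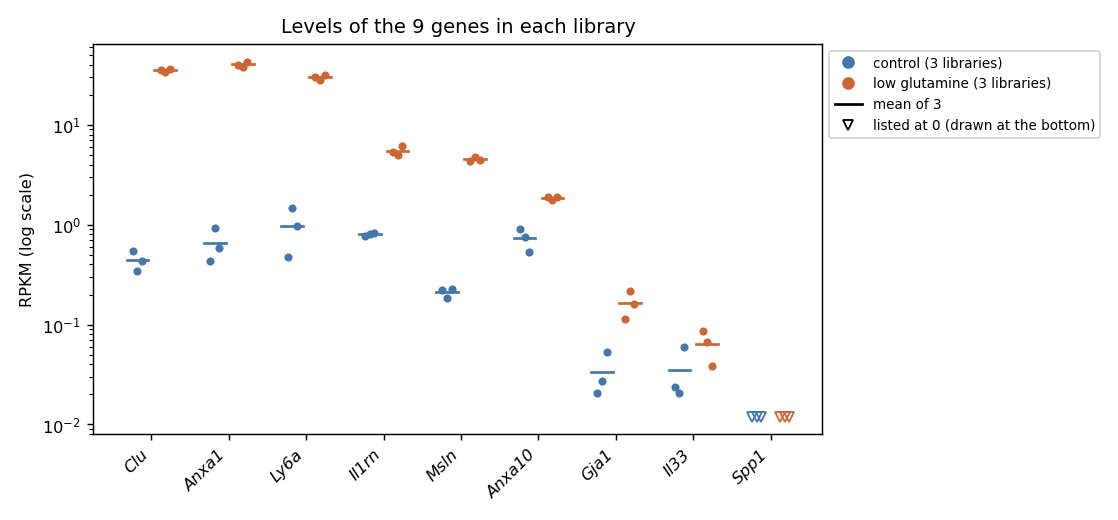
RPKM on a log axis for each of the 9 genes in the 3 control libraries (blue) and the 3 low glutamine libraries (orange), with bars at the group means and triangles for values listed at 0. Clu, Anxa1 and Ly6a stand between 28.1 and 42.9 RPKM in low glutamine, and the groups overlap for Il33.

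Clu (gene ID 12759, chr14:65968483-65981548) encodes clusterin, a secreted chaperone that binds misfolded proteins and lipids. Its level was 0.548, 0.343 and 0.430 RPKM in control replicates 1 to 3 and 35.5, 33.9 and 36.3 RPKM in low glutamine replicates 1 to 3. The groups lay far apart, and the values within low glutamine differed little. The means were 0.440 ± 0.103 and 35.2 ± 1.24 RPKM (SD, n = 3 each), an 80.0-fold ratio, with 61.8 to 106 between single libraries. The log2 fold change was 4.65 ± 0.06 (SE, adjusted p = 3.6e-14), the 7th highest of the 11082 tested. On its longest annotated transcript, the control values correspond to about 31, 22 and 19 reads, so the size of this ratio rests on few control reads.

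Ly6a (gene ID 110454, chr15:74994877-74998031) encodes Sca-1, a surface protein held by a lipid anchor. Control replicates 1 to 3 had 0.479, 1.47 and 0.981 RPKM, and low glutamine replicates 1 to 3 had 30.1, 28.1 and 31.5 RPKM. Control replicate 2 was the single control value above 1 RPKM among the 9 genes, and it was still far below every low glutamine library. The means were 0.975 ± 0.493 and 29.9 ± 1.71 RPKM (SD, n = 3 each), a 30.7-fold ratio with 19.2 to 65.8 between single libraries. The log2 fold change was 4.0 ± 0.14 (SE, adjusted p = 9.6e-11). The control values varied by 50.6% of their mean, while counting error alone would give about 20.1%. Of the 770 stretches of 50 bases in the annotated Ly6a transcript, 62 (8.05%) are also found in another gene, most often in Ly6i, so a small part of its reads may be shared. Ly6i itself was listed at 0 in all 6 libraries.

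Msln (gene ID 56047, chr17:25748613-25754378) encodes mesothelin, an anchored surface protein that binds the mucin CA125. Control replicates 1 to 3 had 0.222, 0.183 and 0.227 RPKM, and low glutamine replicates 1 to 3 had 4.38, 4.75 and 4.48 RPKM. Both groups were tight, and they did not overlap. The control values correspond to about 15, 14 and 12 reads. They varied by 11.5% of their mean, while counting error alone would give about 27.1%. The control spread and the ratio therefore rest on few reads and look more exact than they are. The ratio of the means was 21.6, with 19.3 to 26.0 between single libraries, and the log2 fold change was 2.19 ± 0.06 (SE, adjusted p = 1.8e-11, n = 3 each by limma). Msln is also a marker of mesothelium, the lining outside the gut wall. Of the mesothelial markers, Wt1, the defining transcription factor, was listed at 0 in every library, and Upk3b fell from 9.73 ± 0.556 to 7.07 ± 0.216 RPKM (SD, n = 3 each). Lrrn4, under the limit, had 0.0520 ± 0.0272 RPKM in control and 0.243 ± 0.0543 RPKM in low glutamine, with every low glutamine library above every control. The summed level of the 5 mesothelial markers, nearly all of it Upk3b, was 9.57 to 10.7 RPKM in control and 7.41 to 7.84 RPKM in low glutamine.

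Anxa1 (gene ID 16952, chr19:20373434-20390671) encodes annexin A1, which binds membrane phospholipids when calcium is present and, once secreted, promotes mucosal repair through formyl peptide receptors. Its level was 0.436, 0.932 and 0.587 RPKM in control replicates 1 to 3 and 39.6, 38.3 and 42.9 RPKM in low glutamine replicates 1 to 3. It had the highest low glutamine level of the 9 genes, with every library above the highest Clu value. The means were 0.652 ± 0.254 and 40.3 ± 2.38 RPKM (SD, n = 3 each), a 61.8-fold ratio with 41.1 to 98.4 between single libraries. The log2 fold change was 4.65 ± 0.09 (SE, adjusted p = 7.6e-13), the 8th highest.

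Anxa10 (gene ID 26359, chr8:62057042-62123193), an annexin known from gastric epithelium, changed less. Control replicates 1 to 3 had 0.913, 0.759 and 0.528 RPKM, and low glutamine replicates 1 to 3 had 1.88, 1.78 and 1.88 RPKM. The groups did not overlap, and the ratio of the means was 2.52, with 1.95 to 3.57 between single libraries. The log2 fold change was 0.72 ± 0.08 (SE, adjusted p = 8.5e-06), rank 781. The control values correspond to about 50, 47 and 23 reads.

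The annexin family did not move as 1 group. Among the 8 other annexins tested, 3 were higher and 4 were lower, against 36.1% and 30.3% of all tested genes. The median log2 fold change was -0.25, against 0.03 for all tested genes. Anxa3 rose from 1.73 ± 0.0892 to 15.7 ± 1.22 RPKM (SD, n = 3 each). Anxa6 rose from 1.25 ± 0.0628 to 6.84 ± 0.362 RPKM, and Anxa5, a binder of exposed phosphatidylserine, rose from 7.43 ± 0.376 to 16.1 ± 1.80 RPKM. Those that fell include Anxa13, an intestinal annexin, from 58.8 ± 0.546 to 20.7 ± 1.67 RPKM. Anxa2, which organises membrane and actin with S100a10, fell from 273 ± 3.72 to 161 ± 9.98 RPKM and remained above Anxa1 in every library. Anxa7 did not pass the test, with a log2 fold change of -0.09 ± 0.06 (SE, adjusted p = 0.18). With median-of-ratios scaling, 5 of the 8 were lower in place of 4.

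**Figure D2:**
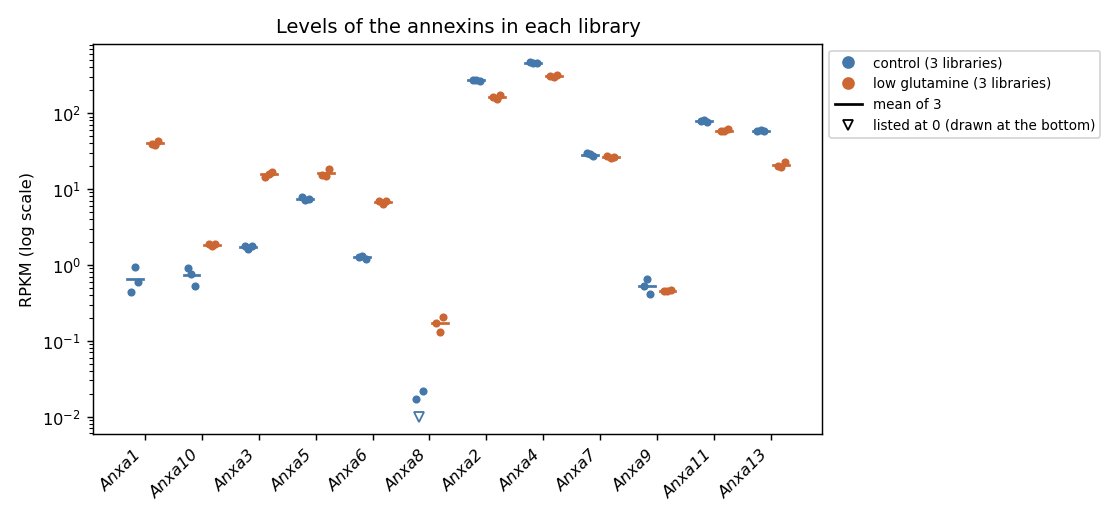
RPKM on a log axis for 12 annexins in the control (blue) and low glutamine (orange) libraries, with bars at the group means and a triangle for a value listed at 0. Anxa1, Anxa10, Anxa3, Anxa5, Anxa6 and Anxa8 have all low glutamine points above all control points, whereas Anxa2, Anxa4, Anxa11 and Anxa13 have them below.

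Il1rn (gene ID 16181, chr2:24336860-24351491) encodes the interleukin-1 receptor antagonist, which occupies the receptor without signalling. Control replicates 1 to 3 had 0.774, 0.808 and 0.822 RPKM, and low glutamine replicates 1 to 3 had 5.36, 5.03 and 6.19 RPKM. The lowest low glutamine library was 6.12 times the highest control library. The control values correspond to about 48, 57 and 40 reads and varied by 3.10% of their mean, where counting error alone would give about 14.4%. The ratio of the means was 6.90, and the log2 fold change was 1.85 ± 0.07 (SE, adjusted p = 2.8e-10, n = 3 each by limma). The agonists it opposes were near detection: Il1a had 0.0841 ± 0.0297 and 0.139 ± 0.0365 RPKM in control and low glutamine, and Il1b had 0.00699 ± 0.0121 and 0.0163 ± 0.0142 RPKM (SD, n = 3 each). Their receptor Il1r1 had 0.0458 ± 0.0300 and 0.116 ± 0.0290 RPKM.

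Of 13 other genes of the interleukin-1 family and its receptors in the table, 3 reached the limit, of which 1 was higher and 2 were lower. The shared receptor chain Il1rap rose from 0.552 ± 0.0587 to 1.54 ± 0.0771 RPKM (SD, n = 3 each), though it was under the limit without any 1 of the low glutamine libraries. Il18, an epithelial cytokine of the family, fell from 3.59 ± 0.452 to 0.959 ± 0.144 RPKM. Sigirr, an inhibitory receptor, fell from 11.1 ± 1.11 to 5.96 ± 0.111 RPKM.

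Il33 (gene ID 77125, chr19:29925113-29960718) encodes a nuclear cytokine released from damaged cells. Its level was 0.0235, 0.0207 and 0.0601 RPKM in control replicates 1 to 3 and 0.0862, 0.0668 and 0.0389 RPKM in low glutamine replicates 1 to 3. Control replicate 3 lay above low glutamine replicate 3, so the groups overlapped, and the two-sided exact permutation test gave p = 0.20, where 3 against 3 libraries cannot go below 0.10. The values are the steps of 2, 2 and 4 reads against 8, 6 and 3 reads. The read totals of 8 and 17 give a ratio of rates of 2.03, with a 95% exact interval of 0.832 to 5.45 that covers counting error only, so a difference was not detectable at this depth. Its receptor Il1rl1 (ST2) had 0.0442 ± 0.00978 RPKM in control and 0.00618 ± 0.00540 RPKM in low glutamine (SD, n = 3 each), near detection in both.

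Gja1 (gene ID 14609, chr10:56377300-56390419) encodes connexin 43, a channel protein of gap junctions. Its level was 0.0206, 0.0273 and 0.0528 RPKM in control replicates 1 to 3 and 0.114, 0.215 and 0.160 RPKM in low glutamine replicates 1 to 3. The groups did not overlap, and the two-sided exact permutation test gave p = 0.10, the smallest that 3 against 3 libraries allow. The values are the steps of 2, 3 and 4 reads against 12, 22 and 14 reads. The totals of 9 and 48 reads give a ratio of rates of 5.1, with a 95% exact interval of 2.48 to 11.8 for counting error only. In the limma fit without the limit on low values, the adjusted p was 0.0063.

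**Figure D3:**
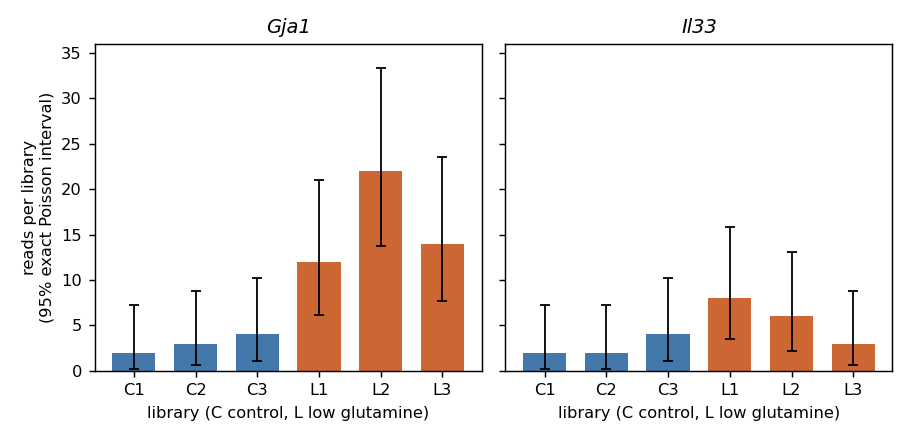
Reads behind the Gja1 and Il33 values in each control (C) and low glutamine (L) library, recovered from the steps of the RPKM values, as bars from 0 with 95% exact Poisson intervals. Gja1 has 2 to 4 control reads and 12 to 22 low glutamine reads, whereas Il33 has 2 to 4 and 3 to 8.

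Among 17 other connexins, 2 reached the limit. Gjb2 (connexin 26) rose from 10.7 ± 0.256 to 15.5 ± 1.42 RPKM, and Gjb1 (connexin 32), which is X-linked, fell from 10.3 ± 0.435 to 7.17 ± 0.227 RPKM (SD, n = 3 each). Both were well above Gja1 in every library.

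Spp1 (gene ID 20750, chr5:104435111-104441053) encodes osteopontin, a secreted ligand of integrins and of CD44. It was listed at 0 in all 6 libraries. For its annotated transcript of 1410 bases, the limit that a count of 0 allows, 3 reads, was 0.0601 to 0.0870 RPKM across the libraries. Genes used by every cell were above 0 in every library, 25 of 25, with a lowest value of 8.64 RPKM. Its receptor Cd44, also a marker of regenerating crypts, rose from 4.20 ± 0.285 to 27.7 ± 1.20 RPKM (SD, n = 3 each; log2 fold change 2.47 ± 0.06 SE, adjusted p = 3.3e-12).

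Among 20 receptors and partners of the secreted proteins, 9 reached the limit, of which 7 were higher and 2 were lower. Over all tested genes the shares were 36.1% and 30.3%. Among the 7, Itgb1 (limma adjusted p = 0.028) kept its call in 13 of 17 alternatives. Cd44 and S100a11, the calcium-binding partner of annexin A1, had the largest rises. S100a11 went from 40.0 ± 3.60 to 250 ± 12.8 RPKM (SD, n = 3 each). Itgb6, an integrin chain of epithelia under repair, rose from 2.83 ± 0.159 to 7.79 ± 0.189 RPKM. The integrin chain Itgb5 fell from 2.82 ± 0.488 to 1.91 ± 0.0621 RPKM. Vldlr, a lipoprotein receptor, fell from 6.94 ± 0.164 to 5.78 ± 0.367 RPKM, a call lost under 1 of 17 alternatives. The formyl peptide receptors Fpr1 and Fpr3 were listed at 0 in every library, and Fpr2 at 0 in all but low glutamine replicate 2, with 0.0234 RPKM.

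The order of levels differed between the media. In low glutamine the order was Anxa1, Clu, Ly6a, Il1rn, Msln, Anxa10, Gja1, Il33 and Spp1, and no neighbours in it overlapped between libraries. In control medium Ly6a, Il1rn, Anxa10 and Anxa1 overlapped with one another, at means of 0.975, 0.801, 0.733 and 0.652 RPKM. Clu, at 0.440 RPKM, overlapped with Ly6a, Anxa10 and Anxa1 but not with Il1rn. Msln, at 0.210 RPKM, was below every control value of these genes. RPKM is scaled to length, so these levels can be set side by side.

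In 18 other genes reported for the fetal-like and regenerative epithelium, most of those measured were higher in low glutamine. Of the 15 that reached the limit, 12 were higher and 3 were lower, against 36.1% and 30.3% of all tested genes. The median log2 fold change was 1.76, against 0.03 for all tested genes. Among the 12, Ly6d and Plaur reached the limit only through low glutamine. S100a11 and Anxa3, given above, had the largest rises, with log2 fold changes of 2.62 ± 0.07 and 2.61 ± 0.06 (SE). The 3 that fell were Anxa2, Areg and S100a10. Areg, a ligand of the EGF receptor, went from 41.2 ± 2.13 to 26.9 ± 1.51 RPKM (SD, n = 3 each). S100a10, the partner of Anxa2, went from 197 ± 8.91 to 154 ± 15.7 RPKM, a call lost with quantile normalization (adjusted p = 0.34). Below the limit, Ereg, another EGF receptor ligand, had 0.859 ± 0.167 RPKM in control and 0.0764 ± 0.0288 RPKM in low glutamine, with no overlap. Of these 18 genes, 8 also stand in other lists given here.

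**Figure D4:**
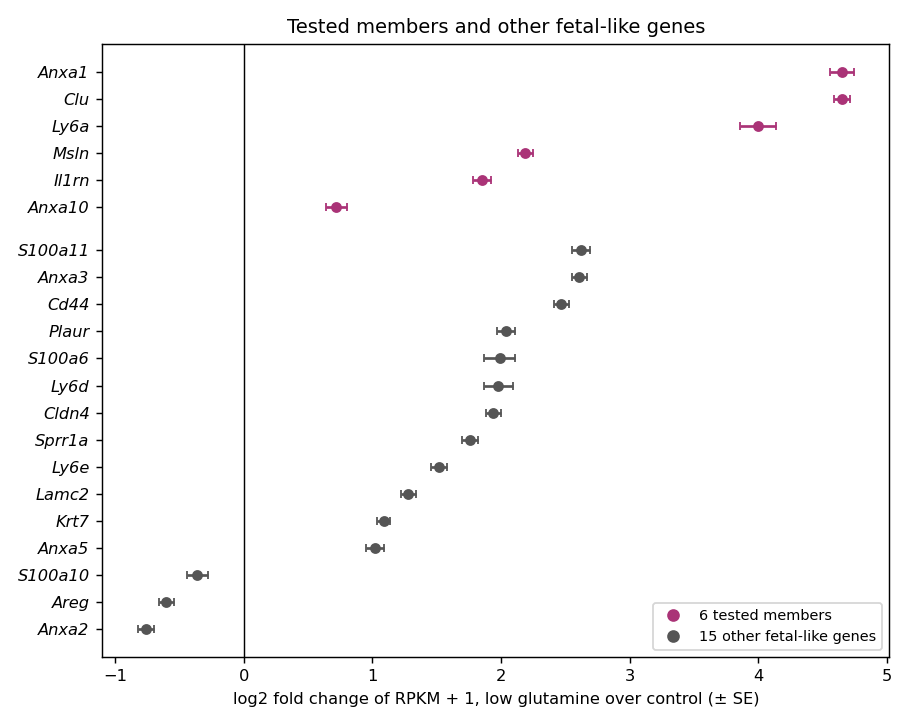
Log2 fold change of RPKM + 1 (low glutamine over control) with its SE for the 6 tested members and the 15 tested genes of the wider fetal-like list, in order of size. Clu and Anxa1 are at 4.65, S100a11 leads the wider list at 2.62, and Anxa2, Areg and S100a10 are below 0.

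Of 12 YAP and TAZ target genes that reached the limit, 8 were higher, against 36.1% of all tested genes. Of the others, 1 was lower and 3 did not pass the test, and the median log2 fold change was 0.97. Among the 8, Ptpn14, Rbms3, Arhgef17 and Myof had control means of 0.0598, 0.110, 0.483 and 0.638 RPKM. They reached the limit only through low glutamine and had to differ, so the count and the median rest partly on them. Every low glutamine library lay above every control library for 16 of the 22 genes of the list, against 36.1% of all rows above 0, and below for 2. F3 (tissue factor) rose from 4.05 ± 0.242 to 21.5 ± 0.787 RPKM, and Ccn1, a matricellular protein, from 2.04 ± 0.358 to 12.4 ± 0.147 RPKM (SD, n = 3 each). Dock5, an exchange factor for Rac, fell from 7.47 ± 0.0816 to 4.55 ± 0.406 RPKM. Crim1, Gadd45a and Nuak2 did not pass, with log2 fold changes of -0.09, -0.03 and -0.03, and with median-of-ratios scaling or quantile normalization 3 of the 12 were lower. A further list held YAP, TAZ, the TEAD factors and genes that regulate them. Of its 11 tested genes, 6 were higher, 0 were lower and 5 did not pass. The 6 were Wwtr1, Tead1 and Tead2 and, of the regulators, Vgll4, Lats1 and Stk3. Among them, Wwtr1 reached the limit only through low glutamine. Wwtr1, which encodes TAZ, rose from 0.0889 ± 0.0160 to 4.07 ± 0.285 RPKM, and Tead2 from 3.65 ± 0.243 to 14.2 ± 1.57 RPKM. Yap1 had 22.5 ± 0.798 and 24.0 ± 0.0467 RPKM (adjusted p = 0.12), and 3 of 17 alternatives gave it another call. With median-of-ratios scaling, 5 genes of this list were higher and 3 were lower. Rescaling to a common sum gave 8 higher, or 9 without the ribosomal row Rn45s, and 0 lower.

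In the Ly6/uPAR family, to which Ly6a belongs, 5 of 20 other genes reached the limit, of which 4 were higher and 1 was lower. Over all tested genes the shares were 36.1% and 30.3%. Plaur, the urokinase receptor, rose from 0.965 ± 0.106 to 7.08 ± 0.491 RPKM, and Ly6d from 0.315 ± 0.128 to 4.23 ± 0.861 RPKM (SD, n = 3 each). Lypd8, which keeps flagellated bacteria away from the colonic surface, fell from 177 ± 1.77 to 96.2 ± 7.33 RPKM. On chromosome 15, 14 of these genes lie within 602 kb of Ly6a. Ly6c1, 49 kb away, had 0.0567 ± 0.0604 and 2.29 ± 0.269 RPKM and was higher, though it was under the limit without any 1 of the low glutamine libraries. Ly6e, which lies nearer to Ly6a than Ly6c1 does, was also higher, with means of 68.6 ± 1.05 RPKM in control and 199 ± 14.5 RPKM in low glutamine. Its control level was above the limit, unlike those of Ly6c1 and Ly6d. Ly6d and, under the limit, Psca and Lynx1 had every low glutamine library above every control library. In contrast, 9 of the 14 had a low glutamine mean at or below 0.129 RPKM, among them Ly6i at 15 kb.

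Interferons are known to induce Ly6a in other cells, and their response genes were mostly low here. Of 5 tested, 1 was higher and 4 were lower, against 36.1% and 30.3% of all tested genes. The median log2 fold change was -0.66. Irf9 rose from 3.02 ± 0.164 to 3.96 ± 0.204 RPKM (SD, n = 3 each). Stat2 fell from 8.15 ± 0.111 to 3.76 ± 0.0758 RPKM and Irf7 from 4.0 ± 0.210 to 1.68 ± 0.118 RPKM. With a rescaling to a common sum, 3 of the 5 were lower.

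**Figure D5:**
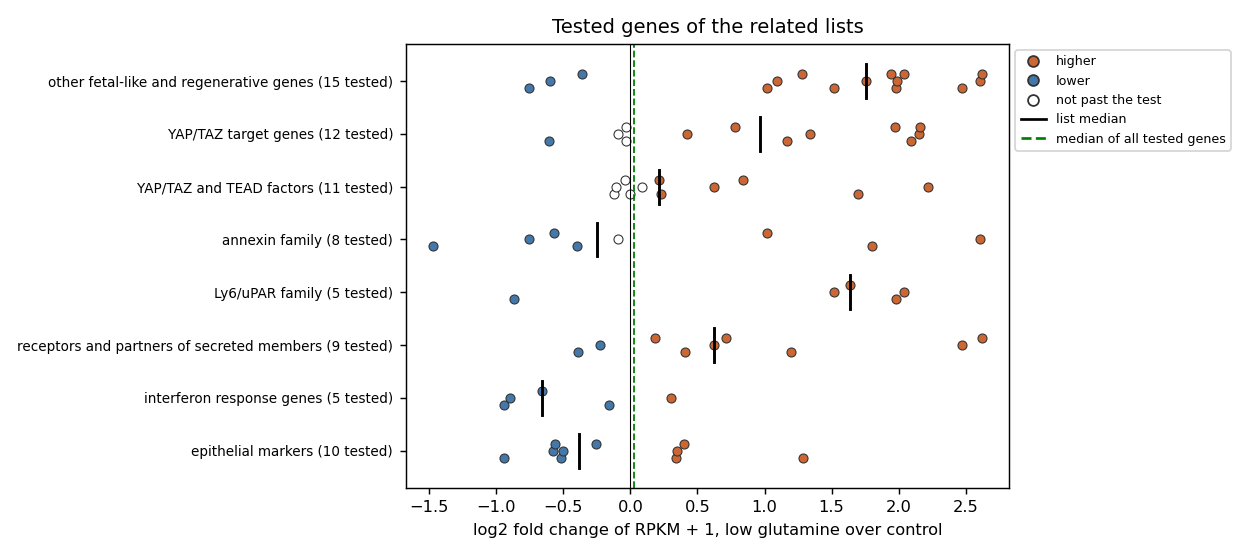
Log2 fold change of RPKM + 1 (low glutamine over control) of each tested gene of 8 lists, with orange points for higher, blue for lower and white for not past the test, black bars at list medians and a dashed line at the median of all tested genes, 0.03. The wider fetal-like list has its median at 1.76 and the annexins at -0.25.

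The epithelial label was borne out by the markers: all 10 epithelial markers were tested, with a summed level of 2389 to 2645 RPKM in control and 2795 to 2881 RPKM in low glutamine. Of these, 4 were higher and 6 were lower, against 36.1% and 30.3% of all tested genes. Krt18 rose from 233 ± 14.5 to 573 ± 15.2 RPKM, and the adhesion protein Cdh1 from 165 ± 6.83 to 219 ± 18.5 RPKM (SD, n = 3 each). The junction protein Cldn3 fell from 171 ± 18.9 to 88.3 ± 4.67 RPKM, and the intestinal transcription factor Cdx1 from 85.3 ± 7.30 to 56.8 ± 0.983 RPKM.

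Several of the 9 genes are also expressed by stromal or immune cells, so those markers are given beside them. Of 10 fibroblast markers, 8 were under 0.1 RPKM in every library, Col3a1 and Lum were listed at 0, and the sum was 3.25 to 4.01 RPKM in control and 10.9 to 12.9 RPKM in low glutamine. Most of that sum was Vim, an intermediate filament protein, which rose from 3.29 ± 0.406 to 11.5 ± 1.08 RPKM (SD, n = 3 each). Pdgfrb, a receptor of stromal cells and under the limit, had 0.271 ± 0.0274 RPKM in control and 0.0739 ± 0.00586 RPKM in low glutamine, with every low glutamine library below every control. Of 10 macrophage and lymphocyte markers, 6 were under 0.1 RPKM in every library, and Adgre1 and Tyrobp were listed at 0. Their sum was 2.59 to 2.73 RPKM in control and 4.38 to 5.05 RPKM in low glutamine, where Cd14 and Cd68 were higher. Under the limit, Itgam had 0.783 ± 0.119 RPKM in control and 0.230 ± 0.0175 RPKM in low glutamine, with no overlap, and Lyz2 had 0.475 ± 0.105 and 0.310 ± 0.159 RPKM, with overlap. The 5 endothelial markers summed to 0.294 to 0.307 and 0.440 to 0.590 RPKM, and the 7 squamous markers were under 0.1 RPKM in every library. The part of such cells in the levels of the 9 genes was not tested.

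Estimated depths were 24.4 to 35.4 M (mega) reads in control and 28.2 to 34.0 M reads in low glutamine libraries. Sex-linked genes separated the groups. Xist, the RNA of the inactive X chromosome, was at 83.1 to 90.5 RPKM in control and 0.0237 to 0.0350 RPKM in low glutamine, whereas the Y-linked Eif2s3y was listed at 0 in control and at 25.2 to 31.4 RPKM in low glutamine. In each of the 6 libraries the sex-linked pattern went with the medium, so the control and low glutamine libraries came from different animals. Medium, sex and any other difference between these animals cannot be told apart for any gene given here. None of the 9 genes is on the X or Y chromosome. Without those chromosomes' rows all 6 calls of the tested genes were as before. Each gene is fitted by its own values, so this step could hardly move these calls and cannot separate sex from medium.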

How the data were processed

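RNA-seq was run on 3 control and 3 low glutamine libraries, grouped by their labels. The values are RPKM per gene symbol, made by the authors and deposited as 1 table. The genome mm10 and the tools HISAT2 2.0.4, CASAVA 1.8 and Partek are listed in the submitters' processing notes. The annotation, counting rule and strandedness are not given in the sources used here. Values that could not be 1 read (955 of 149736) were taken as 0.

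Groups were compared by limma 3.58.1 (R 4.3.3), applied to log2(RPKM + 1) with a variance trend where the 6-library mean was 1 RPKM or more, two-sided, with Benjamini-Hochberg adjustment over all 11082. The script was tested on simulated data. Gja1 and Il33, under the limit, had an exact permutation test. Spp1, at 0 throughout, and list genes under the limit had none. Python 3.11.15, pandas 2.3.3, numpy 2.4.6, scipy 1.17.1 and matplotlib 3.10.9 served for tables and plots. Depth was estimated from the steps of low values of single-exon genes, of which 79.0% to 87.9% per library were whole reads within 0.03. The reads of Gja1 and Il33 come from the transcript length that makes all 6 values whole, 3110 and 2730 bases (annotated Gja1 transcripts have up to 3182 and Il33 up to 2544). Other read numbers use the annotated transcript and are approximate. They were added after seeing the data.

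The 9 genes, the lists, the tests and the alternatives were chosen with earlier results of these data known. Named were the 9 genes, up to 2 list members with the largest rise and the largest fall, small remainders of a list and, for each tested gene, the closest profile. Other named list genes were chosen after their values were seen, and some list genes are not reported here. Protein identity to Ly6a was replaced by shared 50-base stretches of GENCODE M21 transcripts. Same-numbered libraries deviated together (correlations 0.15, 0.25 and 0.57, all above 0.1), which met the rule for pairing. Some differently numbered libraries correlated as much, control 2 with low glutamine 1 at 0.36 and control 1 with low glutamine 2 at 0.20, so the rule does not show that the numbers pair the samples. Alternatives covered the pseudocount, the limit, scaling, the trend, the sex chromosomes, the replicate block and leaving out each library.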

Additional observations from a re-analysis of the deposited data

How the results depend on the processing

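The log2 fold changes of Ly6a, Anxa1, Anxa10, Clu, Msln and Il1rn kept their direction and their side of the threshold in 99 of 99 recomputed values over 17 alternatives. The alternatives reused the same libraries. Except in the fit without it, they kept a limit that these genes passed only through low glutamine. The agreement is therefore no evidence about the set. The size followed the pseudocount: Anxa10 ranged from 0.26 to 1.25 and Clu from 2.89 to 6.05. With a limit of 5 RPKM only 3 of the 9 genes were tested, all 3 higher, because Anxa10, Msln and Il1rn fell below it, and 2532 of all tested genes were higher, against 4001. Rescaling to a common sum without the ribosomal row Rn45s gave 6040 higher genes and 2385 lower and moved the median of all genes to 0.17. The higher share of calls was 54.4%, against 71.7% with that rescaling, 69.1% with Rn45s included (median 0.14) and 42.3% with median-of-ratios scaling. The cause of these shifts was not tested.

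With the replicate block, 4192 genes were higher and 3544 lower, and all 6 tested members of the 9 were higher. The block changed no call of theirs. Leaving out 1 library at a time gave 3605 to 3913 higher and 2938 to 3647 lower genes, with 6 of these members higher each time. Without the limit, the other lists gained low genes: 16 YAP/TAZ targets were higher in place of 8, 7 connexins in place of 1, and 7 Ly6/uPAR genes in place of 4. Levels under about 0.1 RPKM rest on a few reads, which limits Gja1, Il33 and Spp1.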

Other observations

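Some genes of the stomach were also higher in low glutamine. Of 13 gastric markers, 3 reached the limit and all 3 were higher: Pgc (pepsinogen C) went from 0.197 ± 0.122 to 59.9 ± 3.57 RPKM, Cblif (intrinsic factor) from 0.0220 ± 0.00426 to 3.13 ± 0.374 RPKM, and Gkn3, a gastrokine, from 0.232 ± 0.0842 to 3.60 ± 0.638 RPKM (SD, n = 3 each). All 3 passed the limit only through their low glutamine values. The defining markers Gkn1, Gkn2 and Sox2 were listed at 0 in every library. Below the limit, Tff2, Tff1 and Cldn18 had every low glutamine library above every control, whereas Atp4a, Atp4b, Muc5ac and Muc6 overlapped. Tff2 had the highest low glutamine level of these, with means of 0.169 ± 0.146 and 1.40 ± 0.0859 RPKM. No overlap, with low glutamine higher, held for 6 of the 13, against 36.1% of all rows above 0. The summed level of the 13 was 1.41 to 1.81 RPKM in control and 66.3 to 74.7 RPKM in low glutamine. Most of the low glutamine sum was Pgc alone, at 57.0 to 63.9 RPKM. Anxa10 and Pgc differed in size, with log2 fold changes of 0.72 and 5.67.

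By the distance of their 6 log2(RPKM + 1) values, the gene nearest to both Ly6a (0.57) and Clu (1.07) was Thbs1, which encodes the matrix protein thrombospondin 1 and had 1.15 ± 0.0972 and 30.9 ± 1.30 RPKM (SD, n = 3 each). Anxa1 was nearest to Defa5, a Paneth cell defensin, at 0.76. Anxa10 was nearest to Myof, which encodes the membrane repair protein myoferlin, at 0.21. The nearest genes were Pla2g2d for Msln at 0.24 and Fam149a for Il1rn at 0.22. The protein-coding genes on either side of the 9 were 18 in number, of which 7 reached the limit, 3 higher and 4 lower. Both neighbours of Clu were low in each group: Scara3 was listed at 0 in control and had 0.243 ± 0.0123 RPKM in low glutamine, and Gulo had 0.0155 ± 0.0143 and 0.396 ± 0.0496 RPKM. Aldh1a1, next to Anxa1, fell from 20.5 ± 0.320 to 12.3 ± 0.0923 RPKM. These neighbours were examined after the data were seen.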
